A study of Mus musculus with 12 samples.

Results

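Complex I (NADH:ubiquinone oxidoreductase) is the entry point for NADH into the respiratory chain, and its nuclear genes carry symbols that begin with Nduf. All probe sets with a single gene symbol of that kind were taken from the arrays, and the brightest probe set stood for each gene, which gave 43 of the 19938 genes measured. These were 6 core subunits, 28 accessory subunits, 7 assembly factors (Ndufaf1 to Ndufaf7), and Ndufa4 and Ndufa4l2. The last 2 are classed apart, because Ndufa4 has since been assigned to complex IV, but they are counted among the 43. The core subunits encoded by mitochondrial DNA were not analysed here. No filter on low signal was applied, so all 43 genes entered the tests.

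Total RNA from 12 muscle samples was hybridised to whole-transcript arrays, 1 array per sample, and all mice were male C57Bl6 animals of 10 to 12 weeks. The 4 groups, of 3 arrays each, were wild type (WT) gastrocnemius, Cox6a2-/- (KO) gastrocnemius, WT diaphragm and KO diaphragm. In the KO the gene for the heart and muscle isoform of a complex IV subunit is deleted in the whole animal, and the methods describe the controls as C57BL/6J mice from a commercial supplier, matched for age and sex. The comparisons ask whether complex I transcripts differ between the genotypes in a glycolytic limb muscle and in an oxidative respiratory muscle.

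Complex I moves electrons from NADH to ubiquinone along a chain of iron-sulfur clusters in its peripheral arm, and couples this to proton pumping in its membrane arm. The core subunits carry out catalysis and are shared with bacteria, whereas the accessory subunits surround them and are needed for assembly and stability. Assembly factors join the modules and leave the finished enzyme. Oxidative muscle fibers hold more mitochondria, and with them more respiratory chain, than glycolytic fibers do.

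The values are log2 signals, so a difference of 1 is a doubling. Cox6a2 itself checked the genotypes: its signal lay between 11.65 and 12.06 on the 6 WT arrays and between 6.71 and 7.18 on the 6 KO arrays. The tissue labels did not pass the same check. Hoxc10, a position gene of the hind limb, had a mean of 4.18 in KO diaphragm, against 8.53 in KO gastrocnemius, 8.44 in WT gastrocnemius and 8.68 by the label WT diaphragm. For Upk3b, made by mesothelial cells, the means were 9.31, 5.16, 5.49 and 5.41 in the same order. Myh4, the myosin of type IIB fibers, had means of 8.96, 13.64, 13.63 and 13.56. The arrays labelled WT diaphragm thus carried the markers of the gastrocnemius arrays, and they are called "the arrays labelled WT diaphragm" throughout. The KO minus WT comparison by the diaphragm label is therefore given beside KO diaphragm minus KO gastrocnemius, and the parts of genotype and muscle in it cannot be told apart. In bulk muscle, fewer cells of a type and less RNA per cell cannot be told apart either.

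RefSeq promoter windows (GRCm38.p6, 250 bases before to 50 after the annotated start) were found for 38 of the 43 genes. They were searched on both strands for GCGCANGCG (the site of NRF1, a regulator of nuclear respiratory genes), CCGGAAGT (the ETS site that GABP binds), AAGGTCA (bound by the estrogen-related receptors) and AAGATGGCG (the site of YY1). The NRF1 letters occurred in 9 of the 38 genes (23.7%), against 7.03% of the 27025 genes with such a window. The YY1 letters occurred in 5 of 38 (13.2%), against 1.64%. ETS letters were found in 1 gene (2.63% against 4.31%) and the receptor letters in 2 genes (5.26% against 5.38%). Any of these motifs was present in 9 of the 24 genes with a window that were called higher by the diaphragm label (37.5%) and in 6 of the 14 that were not (42.9%). The YY1 matches all began 23 to 36 bases after the start, on the strand of the gene. The stretches below show these matches, because the YY1 letters sat at a like place in 1 core and 4 accessory genes. Capitals mark the motif, the rest is up to 10 flanking bases on each side, and every stretch runs 5′ to 3′ on the strand of the gene. In the order printed they lie at chr6:126849097-126849125 (minus strand), chr3:51408915-51408943 (minus), chr13:114388045-114388069 (minus), chr13:73328433-73328459 (minus) and chr10:80249463-80249491 (plus).
Ndufa9: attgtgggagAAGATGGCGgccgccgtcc
Ndufc1: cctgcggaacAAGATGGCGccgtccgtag
Ndufs4: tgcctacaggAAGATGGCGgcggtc
Ndufs6: ggtcaccggcAAGATGGCGgcggtgct
Ndufs7: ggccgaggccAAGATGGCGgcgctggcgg

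Among the genes with NRF1 letters were 2 assembly factors, Ndufaf4 and Ndufaf5, and the accessory subunit Ndufa8, whose window held 2 matches. They are shown because Ndufaf5 was the 1 gene called in the interaction described further on, Ndufaf4 was called in no comparison, and Ndufa8 was called by the diaphragm label. The stretches lie at chr4:24897960-24897989 (plus strand), chr2:140170652-140170681 (plus), chr2:36049349-36049377 (minus) and chr2:36049329-36049357 (minus). The first pair reads the motif on both strands at 1 place, so the capitals cover 2 overlapping matches.
Ndufaf4: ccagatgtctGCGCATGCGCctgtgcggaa
Ndufaf5: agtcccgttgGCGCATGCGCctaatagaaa
Ndufa8, first match: tagagcagtgCGCTTGCGCgtcgctggag
Ndufa8, second match: tcgctggagaCGCATGCGCagatggtacc

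Complex I transcripts were tested in 1 limma model over all genes, and a gene was called at an adjusted p under 0.05 (Benjamini-Hochberg over the 19938 genes). By the diaphragm label, 26 of the 43 genes, Ndufa4 among them, were higher in KO and none was lower, also not at an unadjusted p under 0.05. Over all genes 27.6% were called in either direction and 16.3% were called higher. The median difference of the 43 genes was 0.36, a rise of 28.6%, against a median of -0.04 over all genes, and the differences ran from -0.25 to 0.72. In 29 of the 43 genes every KO array lay above every array labelled WT diaphragm, which was so for 20.9% of all genes. Of all the genes called in this comparison, 59.3% were higher in KO as deposited and 48.5% after quantile normalization, when 23 of the 43 genes were higher and 1 was lower. That fit called 2777 of all 19938 genes higher and 2953 lower.

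**Figure D1:**
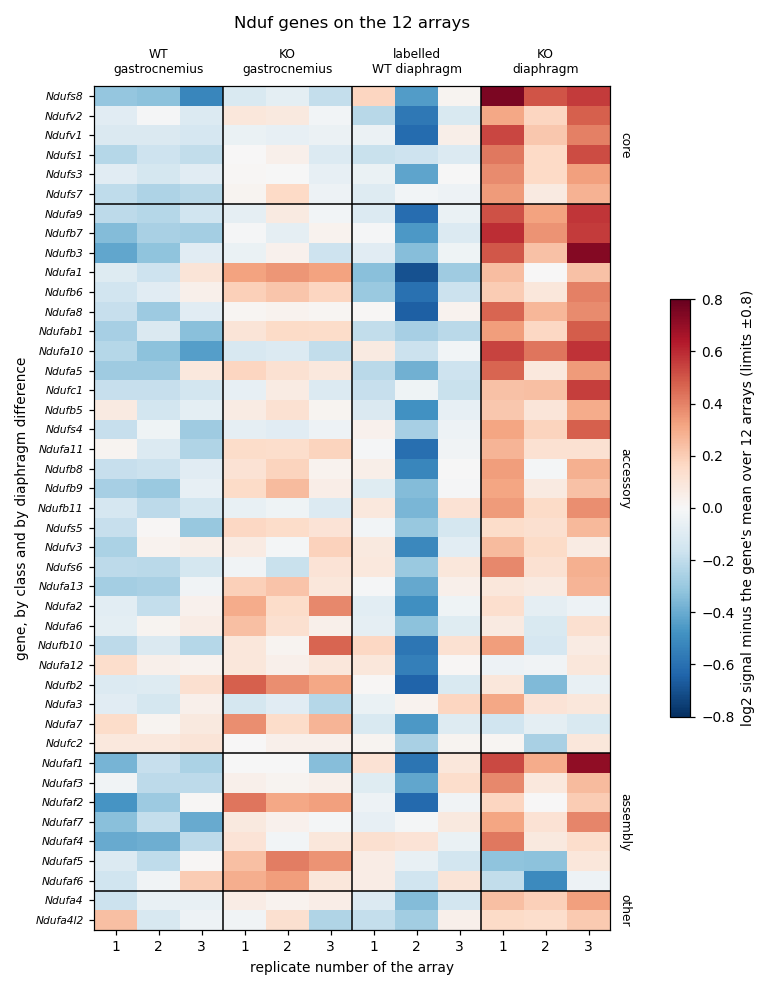
Each row is 1 of the 43 genes and each column 1 of the 12 arrays; colour gives the log2 signal minus the mean of that gene over all arrays, from -0.8 (blue) to 0.8 (red). KO diaphragm is red in the 6 core genes and most accessory genes, and replicate 2 of the arrays labelled WT diaphragm is the lowest of its group in 36 of the 43 rows.

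All 6 core subunits measured were called higher by the diaphragm label, with a median of 0.56 (47.0%). Ndufs8, which holds iron-sulfur clusters close to the ubiquinone site, stood at 10.60, 10.35 and 10.41 in KO diaphragm and at 10.02, 9.40 and 9.87 on the arrays labelled WT diaphragm. The groups did not overlap, and the gastrocnemius arrays of both genotypes (9.33 to 9.77) lay below all KO diaphragm arrays. The difference was 0.69 ± 0.14 (SE, n = 3 arrays per group; limma, adjusted p = 0.0014).

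The NADH-oxidising end of the peripheral arm behaved in the same way. Ndufv1, the subunit that binds NADH and flavin, read 11.57, 11.25 and 11.44 in KO diaphragm against 10.99, 10.42 and 11.08 by label, a difference of 0.59 (adjusted p = 0.0063). Its partner Ndufv2, an iron-sulfur protein, read 11.23, 11.09 and 11.40 against 10.70, 10.35 and 10.80, a difference of 0.63 (adjusted p = 0.0010). Ndufs1, the largest subunit and a carrier of several clusters, read 11.81, 11.55 and 11.91 against 11.21, 11.22 and 11.28, a difference of 0.52 (adjusted p = 0.0010). For these 3 genes the lowest KO diaphragm array was above the highest array labelled WT diaphragm. In Ndufs1 the 3 labelled arrays lay close together, while in Ndufv1 and Ndufv2 replicate 2 was well below the other 2.

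The remaining pair belongs to the module that reduces ubiquinone. Ndufs3 read 11.96, 11.74 and 11.91 in KO diaphragm against 11.53, 11.16 and 11.58 (difference 0.44, adjusted p = 0.0070). Ndufs7, which carries the last cluster of the chain, read 11.22, 10.95 and 11.16 against 10.78, 10.86 and 10.84 (difference 0.28, adjusted p = 0.034). Ndufs7 was the core gene with the smallest difference. Its call was lost when any 1 of the 3 arrays labelled WT diaphragm, or replicate 1 or 3 of KO diaphragm, was left out, at adjusted p from 0.050 to 0.12.

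Of the 28 accessory subunits, 16 were called higher by the diaphragm label, with a median over the class of 0.36 (28.3%), and all 28 had a positive difference. Ndufa9, a subunit at the junction of both arms, changed most of all 43 genes. It read 11.45, 11.26 and 11.51 in KO diaphragm and 10.83, 10.33 and 10.89 on the arrays labelled WT diaphragm, without overlap, and the difference was 0.72 ± 0.13 (SE; adjusted p = 7.4e-04). Ndufb7, a membrane arm subunit, read 10.49, 10.26 and 10.46 against 9.89, 9.44 and 9.79, a difference of 0.69 (adjusted p = 3.4e-04). Ndufb3, also of the membrane arm, read 8.33, 8.07 and 8.57 against 7.74, 7.49 and 7.80, a difference of 0.65 (adjusted p = 0.0020).

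At the other end of the class were the 3 smallest differences by the diaphragm label. Ndufc2, of the membrane arm, read 11.03, 10.76 and 11.11 in KO diaphragm and 11.04, 10.76 and 11.04 by label. Its difference was 0.02, with a 95% interval from -0.20 to 0.25. Ndufa7 had a difference of 0.10 (interval -0.12 to 0.33) and Ndufa3 one of 0.13 (interval -0.08 to 0.33). In all 3 the groups overlapped and none was called.

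By position in the enzyme the calls were spread over both arms. In the peripheral arm 9 of 15 genes were called higher by the diaphragm label (median 0.41), and in the membrane arm 12 of 18 (median 0.37). By symbol they covered 7 of 13 Ndufa genes (Ndufab1 included, Ndufa4 and Ndufa4l2 left out), 6 of 9 Ndufb genes and 6 of 7 Ndufs genes. No test was made between arms or families, since genes are not replicates of a condition.

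**Figure D2:**
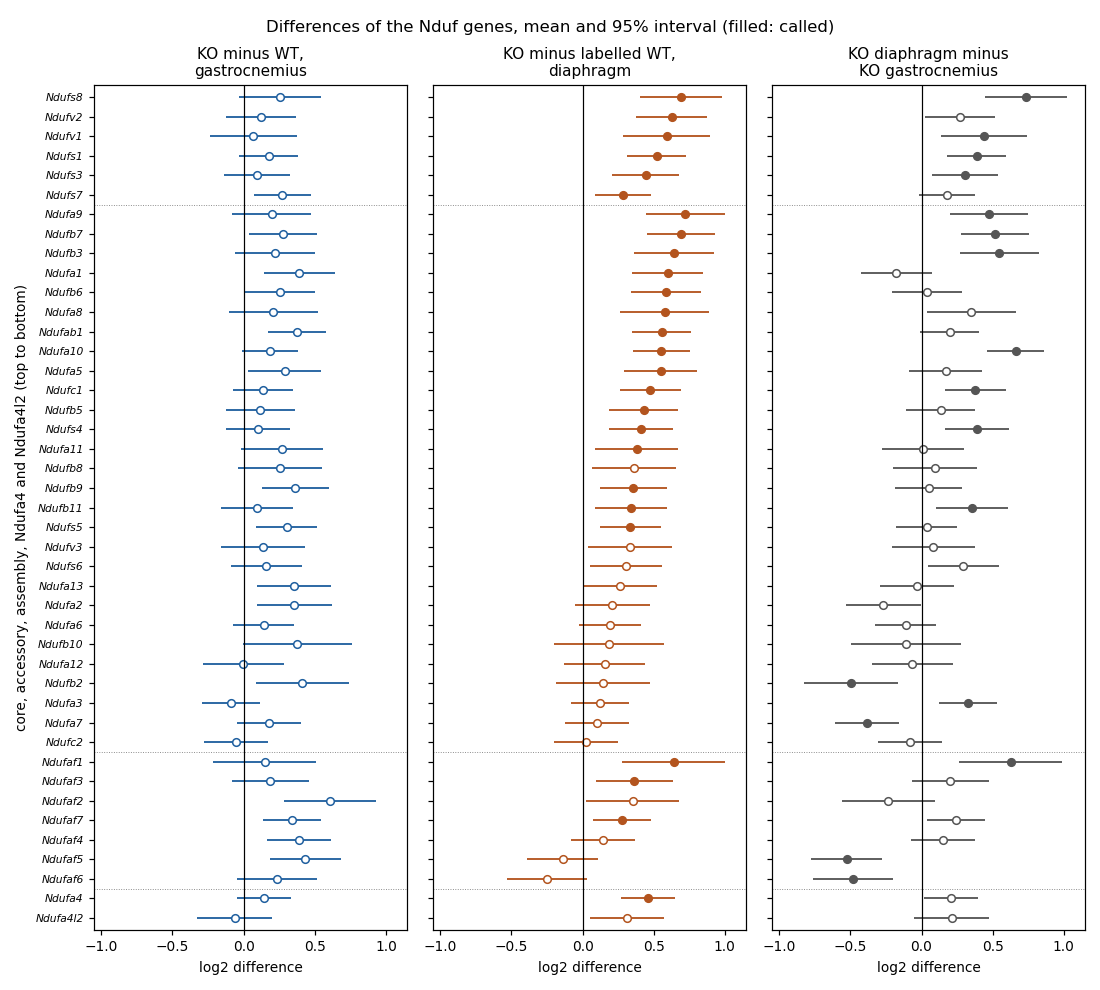
Log2 difference of each gene with its 95% interval from limma (filled points: adjusted p under 0.05), for KO minus WT in gastrocnemius (left), KO minus the arrays labelled WT diaphragm (middle) and KO diaphragm minus KO gastrocnemius (right). In the left panel 39 of 43 points are above 0 with none filled, in the middle panel 26 are filled and all of these are above 0, and in the right panel 13 are filled above 0 and 4 below.

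Of the 7 assembly factors 3 were called higher by the diaphragm label, and the class median was 0.28 (21.1%). No test was made between the classes. Ndufaf1, which acts in the intermediate assembly complex of the membrane arm, read 9.33, 9.10 and 9.51 in KO diaphragm against 8.92, 8.22 and 8.89. Its difference of 0.64 ± 0.17 (SE; adjusted p = 0.011) was close to those of the core subunits. Ndufaf3, a partner of Ndufaf4 early in assembly, read 7.64, 7.34 and 7.51 against 7.16, 6.84 and 7.40, and these groups overlapped (difference 0.36, adjusted p = 0.046). Ndufaf7, a methyltransferase, had a difference of 0.28 (adjusted p = 0.043). The calls of Ndufaf3 and Ndufaf7 were lost without any of several single arrays, among them replicates 1 and 2 of the arrays labelled WT diaphragm and replicates 1 and 3 of KO diaphragm, at adjusted p up to 0.19 and 0.16. The call of Ndufaf1 was lost without replicate 3 of KO diaphragm, where the adjusted p rounded to 0.050 but was no longer under the threshold.

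The other 4 assembly factors were not called there. Ndufaf2 is a relative of the subunit Ndufa12 that holds its place during assembly, and it differed by 0.35 (adjusted p = 0.10). Ndufaf4 differed by 0.14 (adjusted p = 0.33). Ndufaf5, which hydroxylates Ndufs7, differed by -0.14 (adjusted p = 0.40), and Ndufaf6, needed early in assembly of the membrane arm, by -0.25 (adjusted p = 0.18). These were the only 2 of the 43 genes with a negative difference by the diaphragm label. After quantile normalization Ndufaf6 was called lower (-0.37, adjusted p = 0.050).

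Ndufa4 read 12.63, 12.58 and 12.72 in KO diaphragm and 12.28, 12.04 and 12.24 on the arrays labelled WT diaphragm, without overlap (difference 0.46, adjusted p = 0.0013). Its paralogue Ndufa4l2, known as a target of hypoxia-inducible factor, read 7.19, 7.18 and 7.25 against 6.85, 6.76 and 7.08. These groups did not overlap either, but the difference of 0.31 was not called (adjusted p = 0.072).

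**Figure D3:**
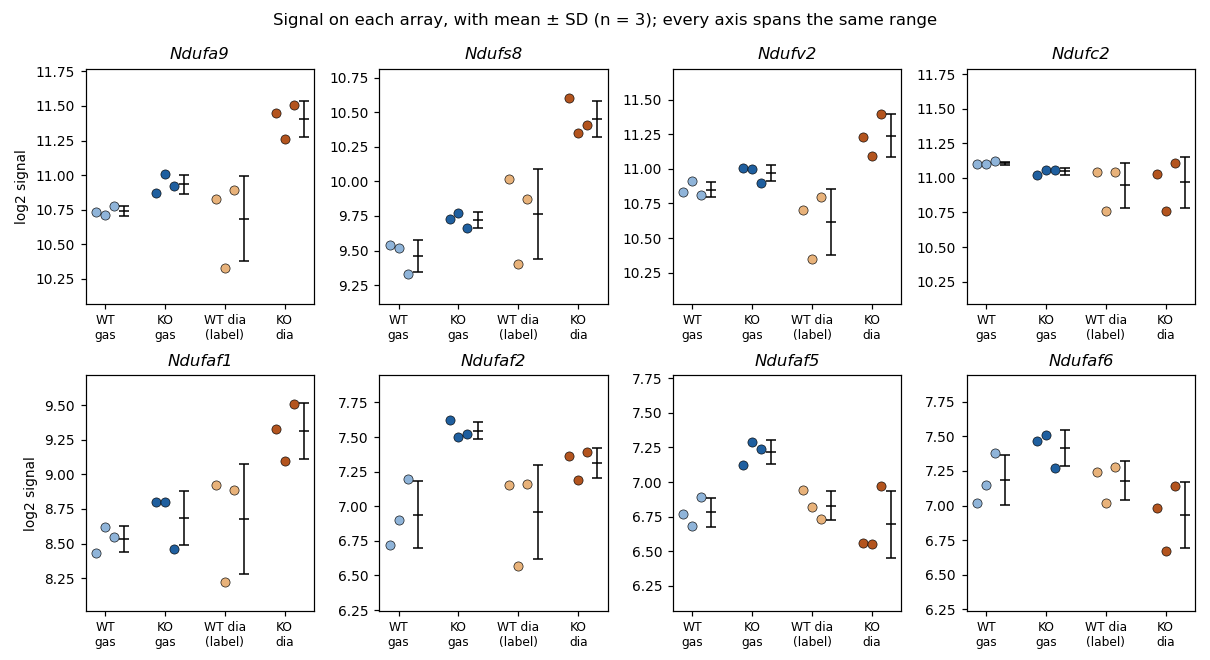
Log2 signal of 8 genes on each of the 12 arrays (points), with the mean and SD of each group of 3 beside them; every vertical axis spans the same range. Ndufa9, Ndufs8, Ndufv2 and Ndufaf1 are highest in KO diaphragm, Ndufc2 is level, Ndufaf2 and Ndufaf5 are highest in KO gastrocnemius, and replicate 2 of the arrays labelled WT diaphragm lies below the other 2 in all panels but that of Ndufaf5.

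In gastrocnemius no complex I gene was called by limma in KO against WT, where 0.592% of all genes were called. Yet 39 of the 43 genes had a positive difference, against 46.5% of all genes, with a median of 0.21 (15.7%) against -0.01 over all genes. At an unadjusted p under 0.05, 15 of the 43 were higher and none lower (8.11% of all genes were higher at that p). With the methods' t-test there were 27 of the 43 at the same unadjusted p, in either direction, against 13.6% of all genes, and 0 after Benjamini-Hochberg adjustment. By the diaphragm label the methods' t-test called 2 of the 43 after this adjustment, against 9.98% of all genes. Every KO array lay above every WT array in 29 genes, which was so for 12.3% of all genes.

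Among the classes the assembly factors had the largest median in gastrocnemius. All 7 had a positive difference, and the median was 0.34 (26.7%), against 0.22 in the accessory subunits and 0.15 in the core subunits, with no test between them. Ndufaf2 read 7.62, 7.50 and 7.52 in KO gastrocnemius and 6.72, 6.90 and 7.20 in WT gastrocnemius. The groups did not overlap, although the WT arrays were spread widely. The difference of 0.61 ± 0.15 (SE, n = 3 per group) had an adjusted p of 0.090, and of 0.036 when replicate 2 of the arrays labelled WT diaphragm, which share the estimate of the spread, was left out.

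Ndufaf5 read 7.12, 7.29 and 7.24 in KO gastrocnemius against 6.77, 6.68 and 6.89 in WT, without overlap (difference 0.43, adjusted p = 0.10). Ndufaf4 read 8.29, 8.16 and 8.27 against 7.78, 7.79 and 7.97, also without overlap (difference 0.39, adjusted p = 0.10). The smallest p of a subunit was that of Ndufab1, the mitochondrial acyl carrier protein, which is found in both arms. It read 10.19, 10.24 and 10.23 against 9.82, 9.97 and 9.75 (difference 0.38, adjusted p = 0.091), and its second probe set gave 0.44.

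Among the core subunits, none of which was called in gastrocnemius, Ndufs7 had the largest difference, 0.27 (adjusted p = 0.17), with KO arrays at 10.90, 11.04 and 10.84 and WT arrays at 10.68, 10.63 and 10.66. Ndufs8, which differed most of the core genes by the diaphragm label, differed here by 0.26 (adjusted p = 0.35). Ndufs1 differed by 0.18, Ndufv2 by 0.12, Ndufs3 by 0.09 and Ndufv1 by 0.07. In 5 of the 6 core genes the KO arrays nonetheless all lay above the WT arrays, since the spread within groups was small: the median SD of the 43 genes was 0.105 in WT and 0.0685 in KO gastrocnemius.

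**Figure D4:**
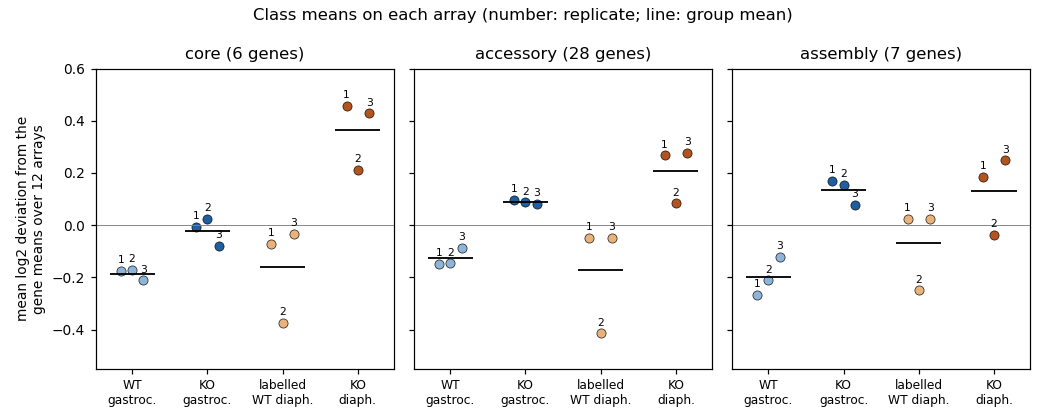
Mean deviation of each class from the gene means over the 12 arrays (log2), for every array (points, numbered by replicate) and group (line). Core genes lie at -0.08 to 0.02 in KO gastrocnemius and at 0.21 to 0.46 in KO diaphragm, whereas assembly factors lie at 0.08 to 0.17 and at -0.04 to 0.25.

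Both genotype comparisons share no array, but by the diaphragm label the parts of genotype and muscle cannot be told apart. Of the 43 genes, 39 had a positive difference in gastrocnemius, 41 by the diaphragm label and 37 in both. The difference by the diaphragm label was the larger one in 32 of the 43 genes. By class this was so for 6 of 6 core subunits, 22 of 28 accessory subunits and 2 of 7 assembly factors. The shares of all genes positive in both, or larger by the diaphragm label, were not computed, so these counts are given as description only. The interaction of genotype and muscle in the limma model compared both KO minus WT differences gene by gene. It used the arrays labelled WT diaphragm, so the parts of genotype and muscle cannot be told apart in it. Put otherwise, it is the KO diaphragm minus KO gastrocnemius difference less that between the arrays labelled WT diaphragm and WT gastrocnemius. Of the 43 genes 1 was called, against 14.8% of all genes. This was Ndufaf5, whose KO minus WT difference was 0.43 in gastrocnemius and -0.14 by the diaphragm label, an interaction of -0.57 ± 0.17 (SE; adjusted p = 0.030). The call was lost when any 1 of these 7 arrays was left out, with adjusted p up to 0.080: replicate 1 of the arrays labelled WT diaphragm, replicates 1 and 2 of WT gastrocnemius, 1 and 2 of KO diaphragm, and 2 and 3 of KO gastrocnemius.

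Among the genes whose difference was larger by the diaphragm label, the smallest p in the interaction were those of Ndufv2 (0.50, adjusted p = 0.054), Ndufa9 (0.53, adjusted p = 0.068) and Ndufa10 (0.37, adjusted p = 0.077). None passed the threshold as first fitted. All 3 passed it with a trended and robust variance (adjusted p of 0.033, 0.045 and 0.042). That fit called 1749 of all 19938 genes positive. All 3 also passed with the filter at the median signal, and Ndufv2 and Ndufa9 with quantile normalization. With a replicate block, fixed or random, with median centring or with averaged probe sets, none of the 43 genes was called positive. Of the fits without 1 array, most called none of the 3. Of all the genes called in the interaction, 59.1% were positive as deposited and 45.0% with each array centred on its median.

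The KO diaphragm minus KO gastrocnemius difference used no array labelled WT diaphragm. Those arrays did share the estimate of the spread behind its calls. Here 13 of the 43 genes were called higher in diaphragm and 4 lower, against 17.7% and 11.2% of all genes, which makes 28.9% called in either direction. The median difference was 0.18 (13.5%), smaller than by the diaphragm label. All KO diaphragm arrays lay above all KO gastrocnemius arrays in 21 of the 43 genes, against 25.7% of all genes. Of all the genes called, 61.3% were higher in diaphragm as deposited and 47.3% with each array centred on its median, when 9 of the 43 genes were called higher and 4 lower. That fit called 2790 of all 19938 genes higher and 3114 lower. This comparison shares the KO diaphragm arrays with the one by label and the KO gastrocnemius arrays with the one in gastrocnemius.

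Of the 6 core subunits 4 were called higher (median 0.35), of the 28 accessory subunits 8 were higher and 2 lower (median 0.09, or 0.05 to 0.15 with 1 array left out), and of the 7 assembly factors 1 was higher and 2 lower (median 0.15, or 0.05 to 0.22). No test was made between the classes. Ndufs8 differed most, with 10.60, 10.35 and 10.41 in diaphragm against 9.73, 9.77 and 9.66 in gastrocnemius (difference 0.73 ± 0.14, SE; adjusted p = 8.6e-04). Ndufa10, a membrane arm subunit with the fold of a nucleoside kinase, read 12.12, 12.01 and 12.16 against 11.45, 11.47 and 11.38. Its difference of 0.66 had the smallest adjusted p of the 43 genes, 9.3e-05, and its arrays labelled WT diaphragm (11.65, 11.41 and 11.56) lay above those of WT gastrocnemius (11.35, 11.25 and 11.14).

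Ndufaf1 was 0.63 higher in KO diaphragm (adjusted p = 0.011) and Ndufb3 was 0.55 higher (adjusted p = 0.0057), in both without overlap of the groups. The call of Ndufaf1 was lost without replicate 3 of KO diaphragm (adjusted p = 0.051) or replicate 3 of KO gastrocnemius (adjusted p = 0.059). Ndufs1 (0.39), Ndufv1 (0.44) and Ndufs3 (0.30) were the other core genes called. The calls of Ndufs3 and Ndufv1 were each lost without replicate 1 or 3 of KO diaphragm or any 1 array of KO gastrocnemius, at adjusted p up to 0.15 and 0.11, and that of Ndufs3 also without any 1 of several WT arrays. Ndufv2 (0.27, adjusted p = 0.099) and Ndufs7 (0.18, adjusted p = 0.16) were not.

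The 4 genes that were lower in KO diaphragm were 2 assembly factors and 2 accessory subunits. Ndufaf5 read 6.56, 6.55 and 6.97 against 7.12, 7.29 and 7.24, a difference of -0.52 (adjusted p = 0.0035). Ndufaf6 read 6.98, 6.67 and 7.14 against 7.47, 7.51 and 7.27, a difference of -0.48 (adjusted p = 0.012). In these 2 factors the arrays of both muscles did not overlap, and replicate 3 of KO diaphragm lay nearest to gastrocnemius. Ndufb2, of the membrane arm, read 8.20, 7.76 and 8.05 against 8.59, 8.48 and 8.42 (difference -0.50, adjusted p = 0.025), and Ndufa7, of the peripheral arm, 7.21, 7.29 and 7.25 against 7.74, 7.52 and 7.64 (difference -0.38, adjusted p = 0.013). Without replicate 2 of KO diaphragm the calls of Ndufb2 and Ndufaf6 were lost, at adjusted p of 0.12 and 0.066. That of Ndufb2 was also lost without replicate 1 or 2 of KO gastrocnemius, and that of Ndufa7 without replicate 1 of KO gastrocnemius (adjusted p = 0.060).

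Some assembly factors of complex I carry other symbols. Of 10 such genes measured, 2 were called higher by the diaphragm label and the same 2 in KO diaphragm against KO gastrocnemius, a share near the 16.3% and 17.7% of all genes. Foxred1, a late assembly factor, was 0.70 higher by either comparison (adjusted p = 4.5e-04 and 3.7e-04), and its interaction was called as well (0.64, adjusted p = 0.016). Dmac2, named for the distal membrane arm, was 0.32 and 0.38 higher (adjusted p = 0.016 and 0.0053). In gastrocnemius none of the 10 was called by limma and all 10 differences were positive, with 1 at an unadjusted p under 0.05.

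No complex I gene was called between the arrays labelled WT diaphragm and WT gastrocnemius, where limma called 0.461% of all genes. The median difference was 0.00, with 22 positive and 21 negative, and at an unadjusted p under 0.05 there were 4 higher and 3 lower. The smallest p were those of Ndufaf4 (0.40, adjusted p = 0.11), Ndufa1 (-0.39, adjusted p = 0.17) and Ndufaf7 (0.31, adjusted p = 0.17). Ndufa1 is an X-linked subunit of the membrane arm. It read 9.88, 9.52 and 9.93 on the arrays labelled WT diaphragm and 10.11, 10.05 and 10.32 in WT gastrocnemius, so that its difference from KO diaphragm by label (0.60, adjusted p = 0.0014) stands beside one of -0.18 between both KO muscles (adjusted p = 0.29).

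Single arrays set part of these values. Replicate 2 of the arrays labelled WT diaphragm was the lowest of its 3 in 36 of the 43 genes (83.7%), against 34.7% of all genes, and its mean deviation was -0.38 where the other 2 were at -0.04. Replicate 2 of KO diaphragm was the lowest of its group in 38 of the 43 (88.4%), against 36.7% of all genes. The median SD of the 43 genes on the arrays labelled WT diaphragm was 0.221, against 0.119 over all genes. Without the first of these arrays 19 of the 43 genes were called higher by the diaphragm label (3028 of all 19938 genes), with a median of 0.26. The medians of the accessory subunits and assembly factors were then 0.22 and 0.17. Without the second of these arrays 26 were called higher (2720 of all 19938 genes), with a median of 0.42.

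Markers of other cells and fibers moved with the diaphragm comparisons. By label and in KO diaphragm against KO gastrocnemius, the 4 markers of type IIB fibers were all called lower and the 7 of slow and oxidative fibers all called higher, with medians of 1.57 and 1.29 for the latter. All 8 mesothelial markers were higher in both (medians 2.62 and 2.71). The log2 of their summed signal lay between 10.67 and 11.56 on the KO diaphragm arrays and between 8.34 and 8.75 on the other 9. Of the 11 macrophage markers 9 were higher by label and all 11 between the KO muscles, and of the 6 adipocyte markers 5 in each. In gastrocnemius limma called none of these markers. At an unadjusted p under 0.05 in limma, 4 of 11 macrophage, 1 of 6 adipocyte and 1 of 8 mesothelial markers were lower. At that p 1 of 7 markers of slow and oxidative fibers was higher. The part of these cells and fibers in the complex I values was not tested.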

How the data were processed

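Muscle RNA (100 ng per sample) was labelled and hybridised by the authors to Affymetrix mouse gene arrays. The deposited values are log2 signals that the authors computed with RMA in Affymetrix Expression Console (per the labels). The versions are not given in the sources used here. RMA subtracts background, sets the arrays to 1 distribution and summarises probes into probe sets, so that most of a shift common to all genes is removed. The medians of the deposited arrays still ran from 5.64 to 5.73. The deposited table holds no call of detection. All 12 columns were matched to samples by their labels and no column was left out (0 not used).

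Of 35556 probe sets, 21789 had 1 gene symbol in the platform annotation, 1621 had several and 12146 were not listed. The brightest probe set by mean over all arrays stood for each of 19938 genes. Of the Nduf probe sets, 48 had 1 symbol and 3 with several symbols were left out. 5 of the 43 genes had 2 probe sets, which disagreed by the diaphragm label for Ndufa11 (0.38 and -0.02). Those of Ndufb11 gave 0.35 and 0.11 between the KO muscles. With probe sets averaged, the calls of Ndufa11 and Ndufb11 by the diaphragm label were lost (limma, adjusted p = 0.29 and 0.096). Between the KO muscles the calls of Ndufb11 and Ndufs3 were then lost (adjusted p = 0.17 and 0.062). All 43 symbols matched RefSeq, which also lists near copies of Ndufa11, Ndufa12, Ndufab1, Ndufs5 and Ndufs6, whose values are therefore uncertain.

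A model of 4 group means was fitted with lmFit and eBayes (limma 3.58.1, R 4.3.3), without a block, and p-values were adjusted by Benjamini-Hochberg over all genes. Data were simulated for the KO minus WT diaphragm comparison over 19938 genes, with noise drawn independently for each gene and array. The fit recovered 95 of 100 genes changed by 1 and 47 of 100 changed by 0.5, with 7 false calls. No other genes were changed and no array had a shift shared by many genes, so these counts need not hold for the real arrays. The titles call the arrays biological replicates. With 3 arrays per group their number limits the precision. The replicate numbers were checked and did not pair the arrays.

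The 43 genes, their classes and all marker lists were chosen with earlier results of these data known, so no list was tested. Genes were named by rule: all core subunits and Ndufaf genes, Ndufa4 and Ndufa4l2, the 4 called genes with the largest differences in each direction of a comparison (or the 3 smallest p where none was called), any gene called in gastrocnemius or the interaction, and the 3 smallest differences by the diaphragm label. Alternatives were each muscle alone, no arrays labelled WT diaphragm, a replicate block (fixed, or random with statmod 1.5.0), a trended robust variance, median centring, quantile normalization, averaging all probe sets of a gene, a filter on dim genes (below the median signal), each array left out, and the methods' t-test. Promoter sequences are from RefSeq.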

Additional observations from a re-analysis of the deposited data

Results flagged for a closer look

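Ndufaf5 was the 1 complex I gene of the 43 called in limma's interaction, against 14.8% of all genes. Its interaction was -0.57 (limma, adjusted p = 0.030), with a KO minus WT difference of 0.43 in gastrocnemius and -0.14 by the diaphragm label. The call was lost when any 1 of 7 arrays was left out, with adjusted p up to 0.080. All 3 KO gastrocnemius arrays lay above all 3 WT gastrocnemius arrays, whereas by the diaphragm label the groups overlapped. The arrays labelled WT diaphragm carry gastrocnemius markers, so the muscle term cannot be told apart from the label.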

How the results depend on the processing

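No call among the 43 genes changed direction under any alternative run, and signs changed only in genes that were not called. Leaving out single arrays gave 0 to 1 genes called in gastrocnemius (1, Ndufaf2, without WT diaphragm replicate 2). By the diaphragm label it gave 17 to 26 (17 without KO diaphragm replicate 3). Between the KO muscles it gave 11 to 20 (11 without KO diaphragm replicate 3), between the WT groups 0 to 0 and in the interaction 0 to 4. Over all 19938 genes, the fit without WT diaphragm replicate 2 called 102 higher and 45 lower in gastrocnemius. The fit without KO diaphragm replicate 3 called 2695 higher and 1729 lower by the diaphragm label. Between the KO muscles it called 3022 higher and 1969 lower. By the same leave-one-out fits, class medians by the diaphragm label ran from 0.22 to 0.45 (accessory) and from 0.17 to 0.35 (assembly), and between the KO muscles from 0.05 to 0.15 (accessory) and from 0.05 to 0.22 (assembly). Assembly medians ran from 0.002 to 0.216 between the WT groups. Interaction medians ran from 0.055 to 0.241 (accessory) and from -0.31 to -0.14 (assembly). The lowest accessory and assembly values by label came without WT diaphragm replicate 2. The methods' t-test gave 27 genes in gastrocnemius at an unadjusted p under 0.05 (13.6% of all genes), and by the diaphragm label 2 after Benjamini-Hochberg (9.98% of all genes). In the interaction 4 genes were called with a trended robust variance and with quantile normalization, and the cause was not tested. The filter at the median signal, where fewer genes were tested (9969), also called 4. In that order, these fits called 1749, 1495 and 1463 of all genes tested higher and 1270, 1397 and 1291 lower.

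Replicate numbers did not pair the arrays: 2 of 18 same-number correlations were over 0.1 (range -0.10 to 0.16), and 4 of 12 arrays correlated best with their own number. With a fixed replicate block 25 of the 43 genes were called higher by the diaphragm label (3230 of all 19938 genes), and with a random replicate block 24 (3183 of all genes). Without the arrays labelled WT diaphragm, 0 genes were called in gastrocnemius, and 15 higher and 4 lower between the KO muscles. Of all 19938 genes, 3460 were then called higher and 2175 lower between the KO muscles. Centring on the median called 84.0% of all gastrocnemius calls higher, against 68.6% as deposited.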
